A study of Mus musculus with 6 samples.

Results

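The genes described here are 10 mouse genes known from pluripotent cells and early germ cells: Pou5f1, Nanog, Zfp42, Dppa2, Dppa3, Dppa4, Dppa5a, Lin28a, Lin28b and Sall4. They were chosen by name, and all 10 were found among the 26567 genes that could be paired with the deposited transcripts. Expression was measured by RNA sequencing of cap mesenchyme, the layer of nephron progenitors that surrounds the ureteric tips, sorted by flow cytometry from C57BL/6 kidneys at embryonic day 18.5. The knockout group comprised 3 libraries with the genotype Dnmt1 -/-, and the group it was compared with comprised 3 libraries with the genotype Dnmt1 +/-, called heterozygous. Both groups carried Six2.Cre, a recombinase driven by a transcription factor of the progenitors, which acts on the conditional Dnmt1 alleles in those cells and their descendants. No library without Cre is analysed here, so the heterozygous cells had also lost 1 allele.

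Pou5f1 and Nanog are the transcription factors at the centre of the network that holds embryonic stem cells in the pluripotent state, and their promoters become methylated when cells differentiate. Zfp42, Dppa2, Dppa3, Dppa4, Dppa5a and Sall4 are used in the same cells and, in part, in primordial germ cells. Lin28a and Lin28b are RNA-binding proteins that block the maturation of the let-7 microRNAs, and let-7 in turn represses Lin28 transcripts. In the kidney, Lin28 and let-7 are known for their part in the timing of nephron formation. Dnmt1 copies methylation of CpG sites to the new strand at replication.

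Because Dnmt1 acts on CpG sites, the promoters are shown with every CpG in capitals, on GRCm38.p6 (the assembly called mm10) as given by RefSeq, each from 250 bases before to 50 bases after an annotated start. The table held a promoter for 5 of the 10 genes. Dazl, a germ cell RNA-binding protein, is shown beside them because its transcript rose in the knockout.
Dazl promoter, chr17:50293571-50293870, minus strand: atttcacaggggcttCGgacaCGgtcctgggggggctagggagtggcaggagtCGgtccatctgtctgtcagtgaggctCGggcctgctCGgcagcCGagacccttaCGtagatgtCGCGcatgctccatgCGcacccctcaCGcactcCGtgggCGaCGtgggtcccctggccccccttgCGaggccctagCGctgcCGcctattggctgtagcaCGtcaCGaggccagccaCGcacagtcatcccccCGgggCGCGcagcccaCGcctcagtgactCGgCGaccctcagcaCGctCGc
Pou5f1 promoter, chr17:35505782-35506081, plus strand: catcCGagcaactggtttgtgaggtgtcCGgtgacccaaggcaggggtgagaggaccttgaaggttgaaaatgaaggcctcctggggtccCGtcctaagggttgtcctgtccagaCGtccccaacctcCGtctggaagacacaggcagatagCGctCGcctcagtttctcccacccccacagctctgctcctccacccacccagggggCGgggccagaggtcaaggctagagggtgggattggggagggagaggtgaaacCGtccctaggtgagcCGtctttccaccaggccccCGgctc
Nanog promoter, chr6:122707239-122707538, plus strand: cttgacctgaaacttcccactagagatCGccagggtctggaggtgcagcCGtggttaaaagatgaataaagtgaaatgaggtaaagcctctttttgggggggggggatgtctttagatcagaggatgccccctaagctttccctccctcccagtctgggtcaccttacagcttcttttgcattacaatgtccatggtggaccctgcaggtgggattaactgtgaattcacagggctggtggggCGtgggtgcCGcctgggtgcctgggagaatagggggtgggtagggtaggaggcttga
Zfp42 promoter, chr8:43306960-43307259, minus strand: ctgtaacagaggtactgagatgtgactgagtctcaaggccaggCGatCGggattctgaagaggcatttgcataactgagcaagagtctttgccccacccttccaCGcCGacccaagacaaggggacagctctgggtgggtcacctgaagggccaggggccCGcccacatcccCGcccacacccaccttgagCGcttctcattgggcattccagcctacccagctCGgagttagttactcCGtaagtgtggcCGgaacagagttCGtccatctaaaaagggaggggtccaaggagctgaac
Lin28b promoter, chr10:45470152-45470451, minus strand: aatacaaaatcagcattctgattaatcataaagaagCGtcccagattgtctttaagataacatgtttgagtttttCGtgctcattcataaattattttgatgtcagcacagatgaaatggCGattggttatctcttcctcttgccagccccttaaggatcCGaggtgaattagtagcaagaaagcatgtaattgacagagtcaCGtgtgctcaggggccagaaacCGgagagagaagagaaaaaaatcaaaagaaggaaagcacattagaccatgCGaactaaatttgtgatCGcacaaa
The Dazl window holds 28 CpG sites, a number reached by 14.2% of 32851 promoter windows. Among other germ cell genes, the windows of Ddx4, Mael and Tex101, whose transcripts also rose, hold 38, 24 and 19. Of those that did not pass the test described below, Kit has 20 and 21 at its starts, Prdm1 20, Sycp3 15 and Nanos3 3. Alpl, which did not pass either, has 4 and 26. Nanos2, whose counts were too low for the test, has 0, and Rhox5, which was not among the measured genes, has 5. No window was read for Piwil2 and Dnd1, which were also called higher, or for Tcfap2c. Whether a rise goes with the number of sites was not tested. The Pou5f1 and Zfp42 windows hold 11 each, the Lin28a window (not shown) 10, the Lin28b window 8 and the Nanog window 4, against a median of 7 over all windows. A further annotated start of Pou5f1 has 6 sites and a further start of Nanog has 4. Methylation itself was not measured in these libraries.

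The let-7 microRNAs are shown because Lin28 acts through them, with the seed (bases 2 to 8) in capitals. Of 11 mature forms in RefSeq, 10 share the seed GAGGUAG and 1, let-7j, has GAGGUAU.
let-7a-5p: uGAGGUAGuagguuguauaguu
let-7g-5p: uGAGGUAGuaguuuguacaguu
miR-98-5p: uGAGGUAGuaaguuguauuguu
let-7j: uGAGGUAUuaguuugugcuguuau
The complement of the shared seed, CTACCTC, was searched on the transcript strand in the longest annotated 3' UTR of each gene. It was present in 8.8% of 19915 genes. Among the 10 genes it was present in 3, with 4 copies in Lin28b, 2 in Lin28a and 1 in Sall4. The first copy in each is shown with the bases around it and the match in capitals, beside Hmga2, a chromatin protein of growing tissues that is the best known let-7 target and holds 4 copies.
Lin28b 3' UTR, match at bases 36 to 42: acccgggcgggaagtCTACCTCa
Lin28a 3' UTR, match at bases 909 to 915: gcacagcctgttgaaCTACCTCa
Sall4 3' UTR, match at bases 1082 to 1088: agggctttaatttatCTACCTCa
Hmga2 3' UTR, match at bases 58 to 64: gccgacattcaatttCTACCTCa

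The 6 libraries held between 46741667 and 61585484 estimated counts. At that depth 3 counts in a library, the limit that a count of 0 allows, correspond to between 0.051 and 0.0662 CPM (counts scaled to library size). Such limits and intervals cover counting error alone. The labels do not say whether libraries came from separate embryos, so p-values measure the spread between these samples. Dnmt1 was at 20.9, 18.6 and 14.9 CPM in the knockout and at 40.03, 52.4 and 51.7 CPM in the heterozygous libraries, a log2 fold change of -1.41 ± 0.15 (SE; quasi-likelihood test in edgeR, adjusted p = 0.000264 by the method of Benjamini and Hochberg, BH), over the whole transcript including any part the deletion leaves. Six2 was at 92.0 ± 15.5 CPM in the knockout and 113 ± 11.99 CPM in the heterozygous libraries (SD, n = 3 each), so the defining marker of the sorted cells was present in both. Of 12 cap mesenchyme markers, 0 were called higher and 3 lower (Cited1, Hoxd11 and Wt1), where 4.92% of all tested genes were called higher and 1.92% lower. With DESeq2, 6 of the 12 were called, where 10.1% of all genes were called in either direction. Those added were Eya1 and Itga8, lower, and Meox1, higher (DESeq2 adjusted p = 0.0102, 0.0207 and 0.00859). Knockout replicate 1 stood apart in markers of other cell types: 8 endothelium markers summed to 176 CPM there, 66.8 and 30.9 CPM in knockout replicates 2 and 3, and 19.2 to 23.3 CPM in the heterozygous libraries. In bulk samples, fewer cells of a type and less RNA per cell cannot be told apart.

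None of the 10 genes was called higher or lower in the knockout. Of the 10, 4 (Pou5f1, Nanog, Dppa2 and Lin28b) passed the filter on low counts and were tested, and 0 of these 4 passed at an adjusted p of 0.05 or at an unadjusted p of 0.05 (edgeR quasi-likelihood test), against 6.85% of 16989 genes called in either direction (4.92% higher and 1.92% lower) and 22.0% with such an unadjusted p. Without the filter all 10 could be tested. Then 0 of 10 passed after adjustment, against 5.6% of 22674 genes, and 4 of 10 had an unadjusted p below 0.05, against 18.4% of genes. With DESeq2, 0 of the 9 with an adjusted p were called, against 10.1% of genes, and 2 of 10 had an unadjusted p below 0.05, against 18.4% of 22656 genes. The groups did not overlap for Zfp42 and Dppa4, where the knockout was above, and for Lin28a, where it was below. That is 2 of 10 above, against 12.8% of 22771 genes with any count, and 1 of 10 below, against 11.2%, both close to the background.

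**Figure D1:**
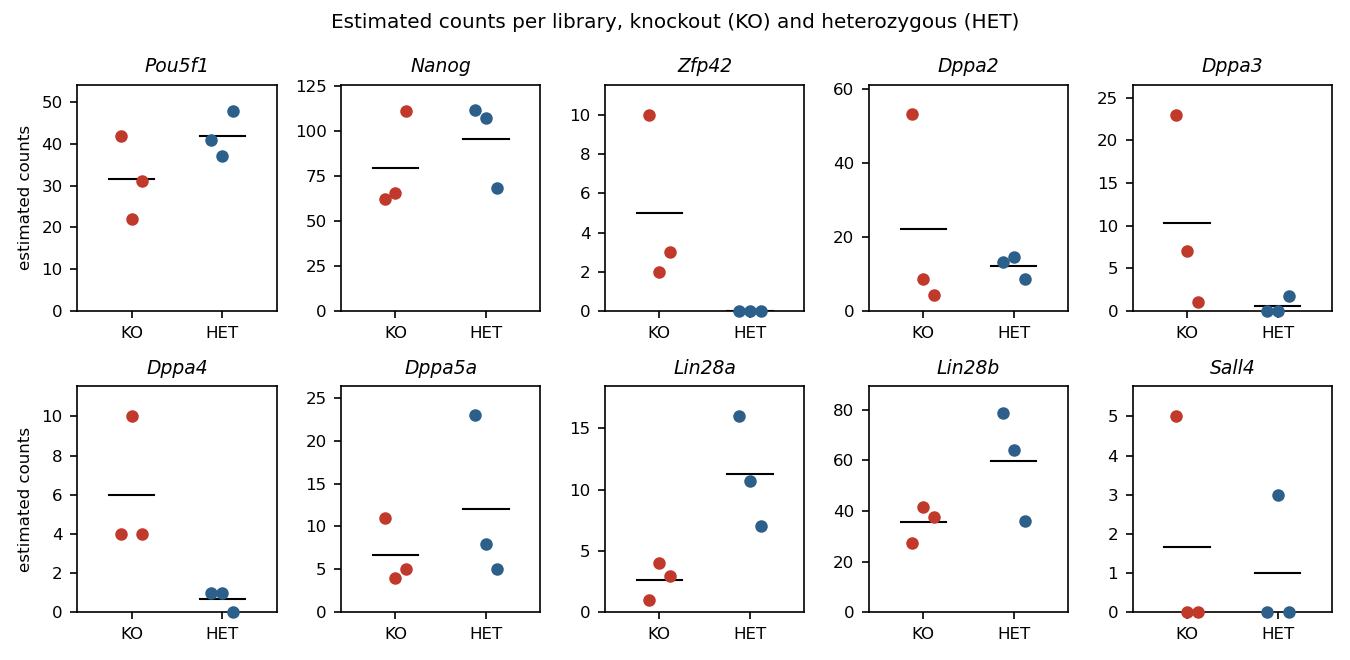
Estimated counts of each of the 10 genes in the 3 knockout (KO) and 3 heterozygous (HET) libraries on linear axes that differ between panels. Points are libraries and lines are group means; Nanog, the most abundant in counts, stays between 62.3 and 112, and Zfp42 is at 0 in all 3 heterozygous libraries.

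The core factors were listed at low levels in both groups, with no gain in the knockout. Pou5f1 had 42, 22 and 31 counts in the knockout libraries and 41, 37 and 48 counts in the heterozygous libraries. The ranges overlapped, and the lowest library was a knockout one. Its level was 0.641 ± 0.235 CPM in the knockout and 0.829 ± 0.217 CPM in the heterozygous group (SD, n = 3 each), and the log2 fold change was -0.37 ± 0.41 (SE; edgeR BH-adjusted p = 0.634). The 95% interval of the fold ran from 0.411 to 1.46, so a rise beyond 1.46-fold lies outside it. Nanog had 62.3, 65.4 and 111 counts in the knockout and 112, 107 and 68.2 counts in the heterozygous libraries. High and low libraries occurred in both groups. Nanog was at 1.59 ± 0.517 CPM in the knockout and 1.84 ± 0.336 CPM in the heterozygous group (SD, n = 3 each), with a fold of 0.864 and a 95% interval of 0.529 to 1.41 (edgeR BH-adjusted p = 0.731). In each library all but at most 0.01 of the estimated Nanog counts were assigned to 1 of 3 listed transcripts, Nanog-003, and most Pou5f1 counts on Pou5f1-001.

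Sall4, a zinc finger factor that works with Pou5f1, was close to absent. It had 5, 0 and 0 counts in the knockout and 0, 3 and 0 counts in the heterozygous libraries. Each group thus held a single library with any count, and the count ratio of 1.73 had a 95% counting interval of 0.336 to 11.1. Zfp42, also called Rex1, a zinc finger marker of naive stem cells, had 10, 2 and 3 counts in the knockout libraries and 0 in all 3 heterozygous libraries. Against 3 counts in each heterozygous library it was at least 1.76-fold higher in the knockout mean, and knockout replicates 2 and 3 were themselves at or below 3 counts. It did not pass when tested without the filter on low counts (edgeR BH-adjusted p = 0.127). An exact 2-sided permutation test of 3 against 3 libraries cannot go below 0.1, and gave 0.1 for Zfp42, Dppa4 and Lin28a.

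The Dppa genes gave a mixed picture at trace level. Dppa2 and Dppa4, neighbouring genes on chromosome 16 whose proteins bind chromatin together in stem cells, were both uncalled, and the difference between their changes was not tested. Dppa2 had 53.2, 8.7 and 4.2 counts in the knockout and 13.3, 14.7 and 8.5 counts in the heterozygous libraries. Knockout replicate 1 was far above all others, while knockout replicate 3 was the lowest of the 6. The log2 fold change was 0.98 ± 0.87 (SE; edgeR BH-adjusted p = 0.540), and it became -0.84 without knockout replicate 1 (adjusted p = 0.577). Dppa4 had 4, 10 and 4 counts in the knockout and 1, 1 and 0 counts in the heterozygous libraries. The groups did not overlap, and the count ratio of 9.34 had a 95% counting interval of 2.24 to 83.0, which leaves out the spread between libraries (BH-adjusted p in edgeR without the filter = 0.220). All knockout counts fell on 1 listed Dppa4 transcript and both heterozygous counts on another.

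Dppa3, also called Stella, protects the maternal genome from demethylation in the zygote. It had 23, 7 and 1 counts in the knockout and 0, 0 and 1.8 counts in the heterozygous libraries. Knockout replicate 3 lay within the heterozygous range, so the groups overlapped, and the count ratio of 16.1 (95% counting interval 4.09 to 139) rested on replicates 1 and 2 (BH-adjusted p in edgeR without the filter = 0.167). Dppa5a, an RNA-binding protein of the KH domain family, had 11, 4 and 5 counts in the knockout and 23, 8 and 5 counts in the heterozygous libraries. The groups overlapped, and heterozygous replicate 1 was highest (BH-adjusted p in edgeR without the filter = 0.643).

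Knockout replicate 1 had the highest level of Zfp42, Dppa2, Dppa3 and Sall4 among the 6 libraries. The same library had the highest summed level of the endothelium markers (values above), of 6 stroma markers (503 CPM, against 253 and 210 CPM in the other knockout and 161 to 219 CPM in the heterozygous libraries), of 6 ureteric bud markers (58.5 CPM, against 40.2 and 27.9 CPM in the other knockout and 21.4 to 30.9 CPM in the heterozygous libraries) and of 6 immune markers (21.4 CPM, against 15.1 and 14.7 CPM in the other knockout and 10.9 to 14.5 CPM in the heterozygous libraries). The part of these cells in the counts of the 4 genes was not tested. Among the lists, 1 of 8 endothelium, 1 of 6 ureteric bud, 1 of 6 immune and 0 of 6 stroma markers were called higher, and none was called lower. Of all tested genes, 4.92% were called higher. With DESeq2 the numbers called higher were 4, 2, 1 and 0, where 10.1% of all genes were called in either direction. No marker of these 4 lists was at 0 in any library.

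**Figure D2:**
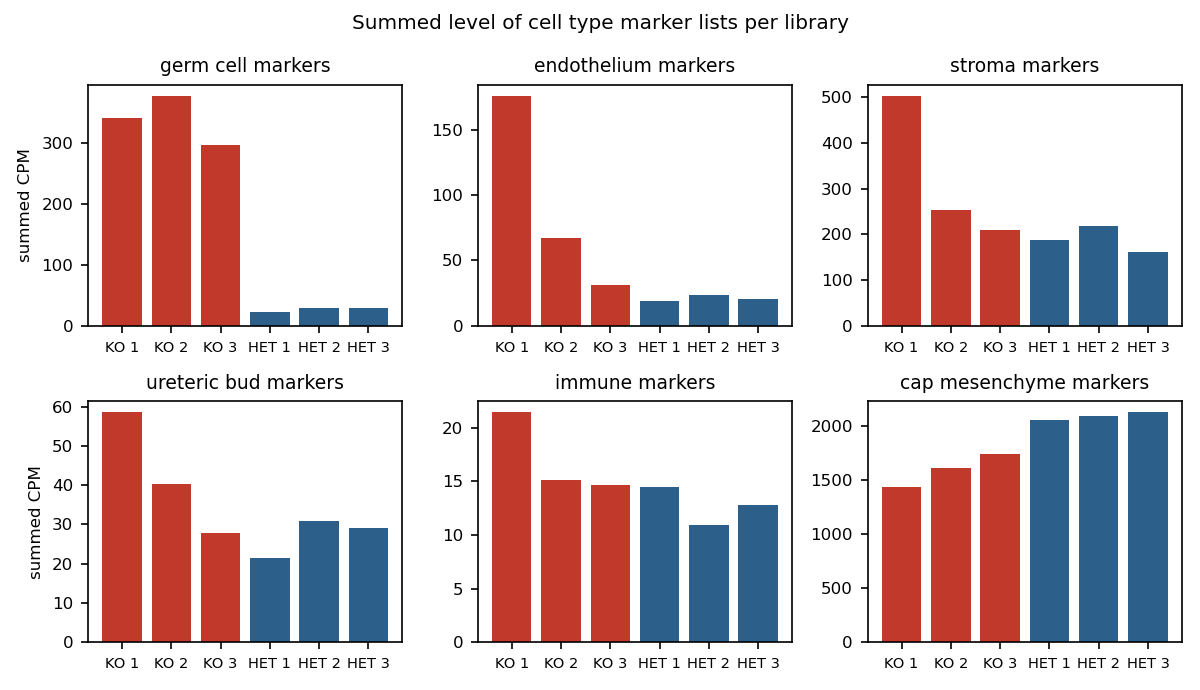
Summed CPM of 6 marker lists in each library, knockout (KO) left of heterozygous (HET), with bars starting at 0. Endothelium markers reach 176 CPM in knockout replicate 1 and stay between 19.2 and 23.3 CPM in the heterozygous libraries, while cap mesenchyme markers are between 1439 and 1742 CPM in the knockout and between 2054 and 2126 CPM in the heterozygous libraries.

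The Lin28 genes were lower in the knockout means, again without a call. Lin28b had 27.6, 41.5 and 37.5 counts in the knockout and 78.7, 64.2 and 36.2 counts in the heterozygous libraries. Heterozygous replicate 3 lay inside the knockout range. Its level was 0.707 ± 0.111 CPM in the knockout and 1.14 ± 0.369 CPM in the heterozygous group (SD, n = 3 each), a fold of 0.618 with a 95% interval of 0.353 to 1.08 (edgeR BH-adjusted p = 0.298). Lin28a had 1, 4 and 3 counts in the knockout and 16, 10.7 and 7 counts in the heterozygous libraries. All knockout libraries were below all heterozygous ones, and the count ratio was 0.244 with a 95% counting interval of 0.0976 to 0.537. Tested without the filter on low counts, Lin28a had a log2 fold change of -1.995 ± 0.872 and did not pass (SE; edgeR BH-adjusted p = 0.237).

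Compared per length, all 10 genes lay low beside genes in use in these cells. Group mean levels ran from 0.0161 to 0.903 TPM (transcript abundance scaled for length and depth) in the knockout and from 0 to 1.14 TPM in the heterozygous group. Nanog and Pou5f1 were highest in both groups, at 0.903 ± 0.291 and 0.656 ± 0.379 TPM in the knockout and 1.14 ± 0.262 and 0.911 ± 0.203 TPM in the heterozygous group (SD, n = 3), and these neighbours in the order did not differ beyond their spread. In the knockout, Dppa3 (0.346 ± 0.399 TPM), Dppa5a (0.318 ± 0.212 TPM), Dppa2 (0.277 ± 0.358 TPM) and Lin28b (0.140 ± 0.0163 TPM) followed with overlapping values, then Dppa4 (0.0892 ± 0.0449 TPM), Zfp42 (0.0674 ± 0.0644 TPM), Sall4 (0.0254 ± 0.0439 TPM) and Lin28a (0.0161 ± 0.0083 TPM). In the heterozygous group the order after Pou5f1 was Dppa5a (0.594 ± 0.513 TPM), Lin28b (0.249 ± 0.0925 TPM), Dppa2 (0.148 ± 0.0296 TPM) and Lin28a (0.0742 ± 0.0326 TPM), with Dppa3, Dppa4 and Sall4 below 0.03 TPM on average and Zfp42 listed at 0. Of all 26567 genes, 51.2% had a higher mean level than Nanog in the knockout, and 48.1% did in the heterozygous group.

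Several germ cell genes in the same libraries were called higher. Dazl was at 266, 303 and 235 CPM in the knockout libraries and at 0.35, 0.0681 and 0 CPM in the heterozygous libraries. Of 12 germ cell markers tested, 6 were called higher in the knockout, 0 lower and 6 did not pass, where 4.92% of all tested genes were called higher and 1.92% lower. The list is of genes already known from these data, so its count is a description. Mael, a piRNA pathway protein, was at 3.08 ± 0.992 CPM in the knockout and 0.00567 ± 0.00982 CPM in the heterozygous group, and Ddx4, an RNA helicase of germ cells, at 6.73 ± 2.68 CPM in the knockout and 0.196 ± 0.189 CPM in the heterozygous group (SD, n = 3 each). Their mean levels per length in the knockout, 100.3 TPM for Dazl, 2.59 TPM for Ddx4 and 2.31 TPM for Mael, exceeded the 0.903 TPM of Nanog there. Summed over the 13 measured germ cell markers, knockout replicates 1 to 3 held 341, 378 and 296 CPM and the heterozygous libraries 22.1 to 29.9 CPM. Most of each knockout sum was Dazl alone, at 266, 303 and 235 CPM. Most of the heterozygous sums came from Alpl and Kit, which averaged 14.3 and 6.58 CPM there and were not called. The other called markers were Piwil2, Tex101 and Dnd1. Dnd1, an RNA-binding protein that primordial germ cells need to survive, was at 3.79 ± 1.14 CPM in the knockout and 1.52 ± 0.228 CPM in the heterozygous group, without overlap (SD, n = 3 each; edgeR BH-adjusted p = 0.0246). Kit and Nanos3, which primordial germ cells also use, were among the 6 that did not pass, with Prdm1, Tcfap2c, Alpl and Sycp3. The part of germ cells in the counts of the 10 genes was not tested.

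**Figure D3:**
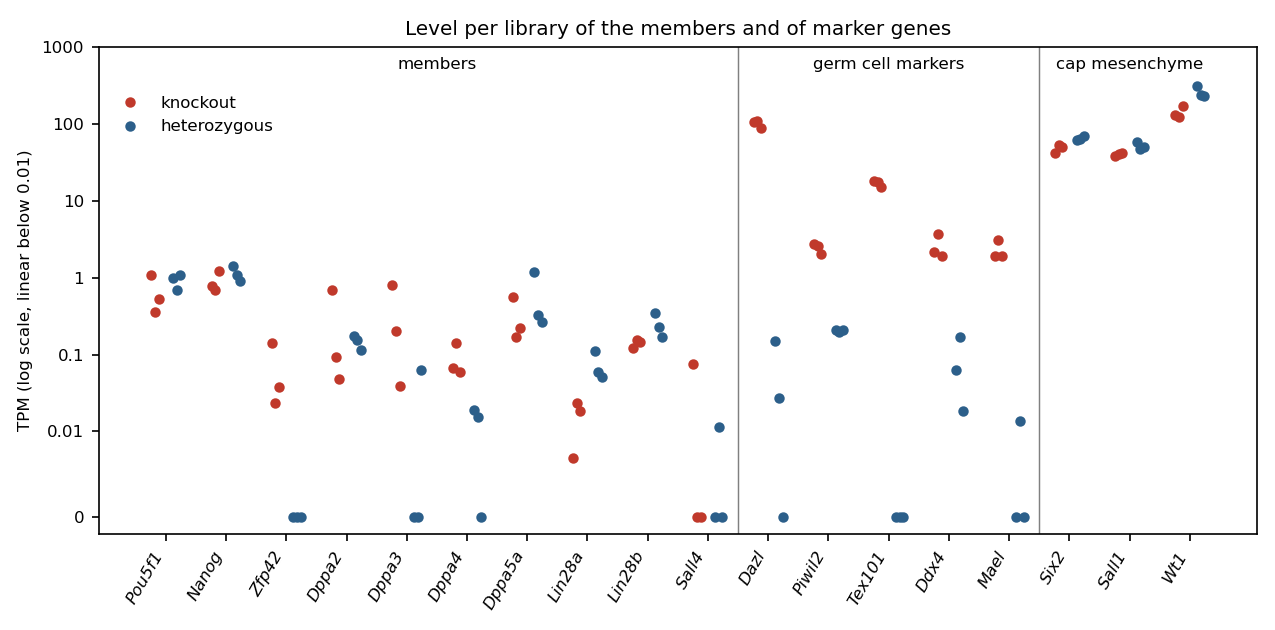
Level per library in TPM of the 10 genes, of 5 germ cell markers and of 3 cap mesenchyme markers, on a log axis that is linear below 0.01, with knockout points left of heterozygous points. The 5 germ cell markers were picked from 13 measured, and all 5 were called higher. Among those not drawn, Sycp3 averaged 1.85 TPM in both groups, and Tcfap2c 0.944 TPM in the knockout and 1.38 TPM in the heterozygous group. The 3 cap mesenchyme markers were picked from 12. The 10 genes reach at most 1.42 TPM in any library, whereas Dazl averages 100.3 TPM in the knockout and Six2 averages 48.8 TPM in the knockout and 65.01 TPM in the heterozygous group.

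Many of these genes have copies of their transcript sequence elsewhere in the genome, which bears on counts this small. Whether a copy was a processed one, a duplicated gene or a shared repeat was not examined. The leading transcript of each gene was aligned to NCBIM37, and other loci with at least 300 aligned bases at 80% identity or more were counted. Dppa2 had 18 such loci, the closest on chromosome 19 with 98.8% identity over 91.7% of the transcript. Dppa3 and Dppa4 had 7 each, Pou5f1 and Dppa5a 6 each and Nanog 3, with the closest Nanog copy on chromosome X at 97.5% identity over 79.7% of the transcript. Zfp42 had 1, on chromosome 15, with 98.1% identity over 99.1% of the transcript. Lin28a, Lin28b and Sall4 had 2, 1 and 1, the closest covering 16.3%, 8.6% and 11.8% of the transcript. Whether reads from such copies entered the counts was not tested, so the counts of the first 7 genes are uncertain as measures of the genes themselves.

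Of the genes next to the 10, a single one was called. Taking the nearest RefSeq protein-coding gene on each side, 16 neighbours were not themselves among the 10. Of these, 13 were tested, 1 was called higher, 0 lower and 12 did not pass. This is near the share over all tested genes, of which 6.85% were called in either direction. The call was Morc1, a chromatin protein of male germ cells known for silencing transposons, which lies 111.7 kb from Dppa2. Morc1 had 36, 36 and 38 counts in the knockout and 7, 3 and 11 counts in the heterozygous libraries, with no overlap. It rose by 2.37 ± 0.55 on the log2 scale (SE; edgeR BH-adjusted p = 0.0291), and the call was lost in 7 of 16 alternative analyses, among them those without each knockout replicate and without heterozygous replicates 1 or 2 (adjusted p up to 0.109). Tcf19, 2.0 kb from Pou5f1, was at 43.0 CPM in the knockout and 48.2 CPM in the heterozygous group on average and was not called (edgeR BH-adjusted p = 0.331). Gdf3, a growth factor gene beside Dppa3, and Slc2a3, a glucose transporter gene beside Nanog, were not called either (adjusted p = 0.878 and 0.150).

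Other genes of the pluripotency network were read from a list of 29. Of 16 tested, 1 was called higher, 0 lower and 15 did not pass, with a median log2 fold change of 0.49, against -0.003 over all tested genes, of which 4.92% were called higher. Summed over the list, the level was 205 CPM in knockout replicate 1, 132 and 110 CPM in knockout replicates 2 and 3, and 99.98 to 108 CPM in the heterozygous libraries. It was thus highest in the library with the most endothelium, stroma, ureteric bud and immune markers, and the part of those cells in the list was not tested. Pecam1 is on both this list and the endothelium list, so those sums share a gene and are not independent. Most of the sum in knockout replicate 1 came from Klf4 (51.9 CPM), Zfp57 (47.0 CPM), Tcfcp2l1 (41.3 CPM) and Pecam1 (33.2 CPM). In the heterozygous group these genes averaged 41.3, 35.5, 13.2 and 2.51 CPM. The call was Klf2, a Krüppel-like factor of naive stem cells that endothelium also uses. Klf2 was at 10.1, 6.44 and 5.88 CPM in the knockout and at 3.66, 4.39 and 3.86 CPM in the heterozygous libraries, again highest in knockout replicate 1. Its log2 fold change was 0.91 ± 0.24 (SE; edgeR BH-adjusted p = 0.0482), and the call was lost in 13 of 18 alternative analyses, including those without knockout replicates 1 or 2 and without each heterozygous replicate (adjusted p up to 0.161). Zfp57, a zinc finger protein that keeps imprints methylated, was at 44.9 ± 2.09 CPM in the knockout and 35.5 ± 2.89 CPM in the heterozygous group (SD, n = 3 each; edgeR BH-adjusted p = 0.0624). The groups did not overlap for Zfp57, and DESeq2 called it higher (adjusted p = 0.0149). Tbx3, a T-box factor, was at 14.1, 5.70 and 3.67 CPM in the knockout and at 1.75, 3.37 and 1.76 CPM in the heterozygous libraries. Its log2 fold change of 1.76 ± 0.55 did not pass (SE; edgeR BH-adjusted p = 0.122), was 1.03 without knockout replicate 1 and passed without knockout replicate 3 (adjusted p = 0.0301) and with DESeq2 (adjusted p = 0.000839). Pecam1, an adhesion molecule of stem cells and endothelium, was at 33.2, 9.43 and 2.32 CPM in the knockout and at 1.32, 3.30 and 2.91 CPM in the heterozygous libraries. Its log2 fold change of 2.57 ± 1.08 did not pass (SE; edgeR BH-adjusted p = 0.262) and was 1.23 without knockout replicate 1. Both were highest in that library.

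The other 13 network genes did not pass the filter on low counts. Of these, 12 could be tested without it and 0 were called, 2 of them (Utf1 and Dnmt3l) having an unadjusted p below 0.05, against 18.4% of genes in that fit (edgeR BH-adjusted p = 0.0930 and 0.0789). DESeq2 called 0 of the 5 for which it gave an adjusted p. Sox2, the partner of Pou5f1, had 0, 7 and 0 counts in the knockout and 0, 1 and 0 counts in the heterozygous libraries. Utf1, a chromatin factor of stem cells, had 2, 31 and 10 counts in the knockout and 0, 0 and 2 counts in the heterozygous libraries, with the groups meeting at 2. Dnmt3l, a cofactor of the de novo methyltransferases in germ cells, had 10, 10 and 21 counts in the knockout and 0, 3 and 1 counts in the heterozygous libraries, which did not overlap. Sox2, Utf1 and Dnmt3l were picked for mention after their values were seen.

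**Figure D4:**
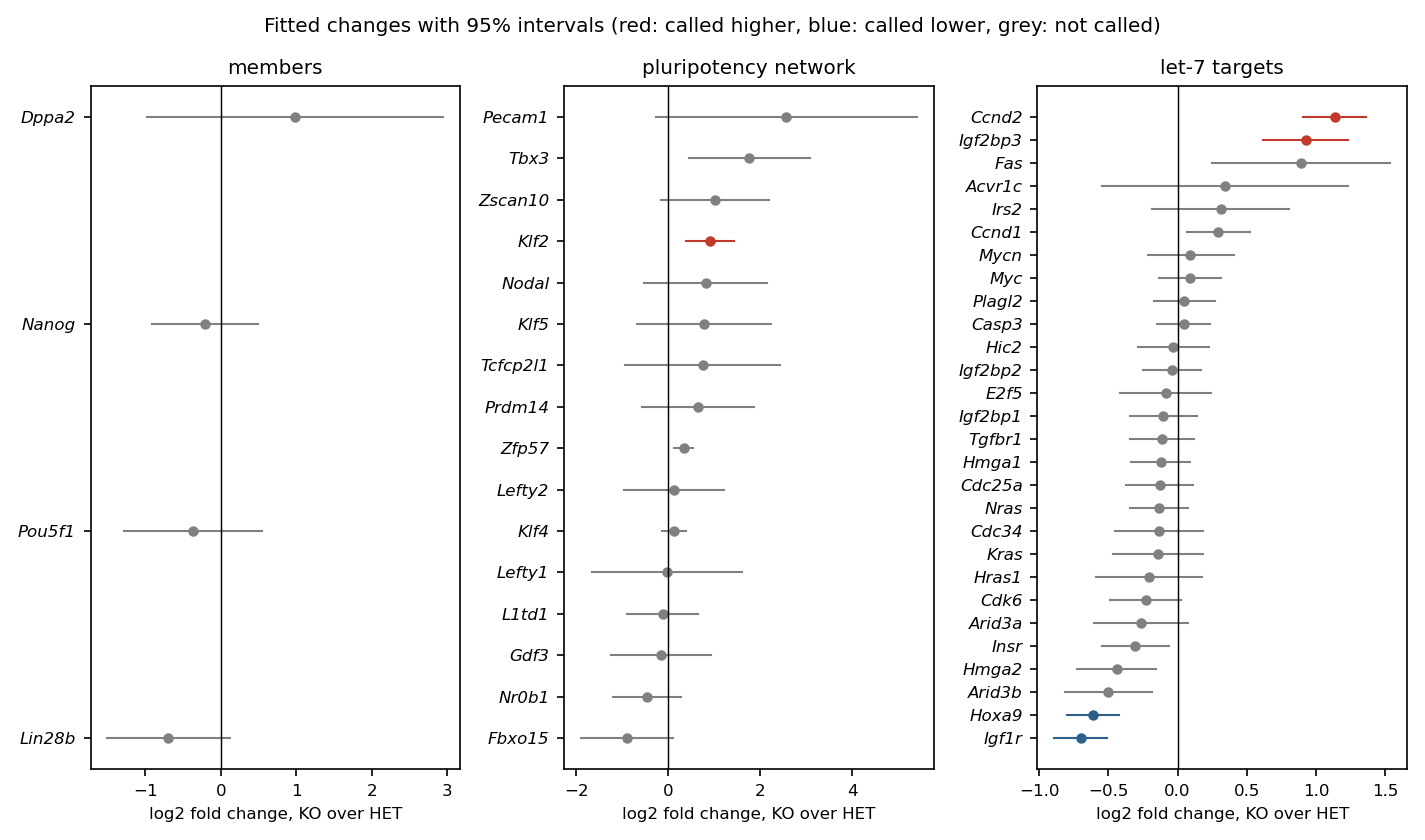
Fitted log2 fold changes, knockout over heterozygous, with 95% intervals for the 4 tested genes of the 10, the 16 tested network genes and the 28 let-7 targets, on separate axes. Intervals of all 4 include 0; Klf2 is the only network gene called, and among let-7 targets Ccnd2 and Igf2bp3 are called higher and Igf1r and Hoxa9 lower.

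Genes for the enzymes and binding proteins around let-7 were expressed in both groups, and 1 of 19 was called higher, 0 lower and 18 did not pass, with a median log2 fold change of -0.03. That is near the share over all tested genes, of which 4.92% were called higher and 1.92% lower. Drosha, the nuclease that cuts primary microRNAs, was at 91.3 ± 6.88 CPM in the knockout and 71.3 ± 4.99 CPM in the heterozygous group (SD, n = 3 each), and the log2 fold change was 0.36 ± 0.09 (SE; edgeR BH-adjusted p = 0.0420). That call was lost in 12 of 18 alternative analyses, among them those without knockout replicates 2 or 3 and without each heterozygous replicate (adjusted p up to 0.267). Khsrp, a binding protein that promotes let-7 maturation, Msi1, a partner of Lin28, and Prkra, a Dicer cofactor, had log2 fold changes of -0.24 ± 0.10, -0.22 ± 0.10 and -0.21 ± 0.10 and did not pass (SE; edgeR BH-adjusted p = 0.189, 0.205 and 0.227).

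Most transcripts listed as let-7 targets did not pass the test. Of 28 tested, 2 were called higher, 2 lower and 24 did not pass, where 4.92% of all tested genes were called higher and 1.92% lower, with a median log2 fold change of -0.11, against -0.003 over all tested genes. Ccnd2, a cyclin of the G1 phase, was at 418, 345 and 399 CPM in the knockout and at 160.5, 196 and 173 CPM in the heterozygous libraries, with no overlap. It rose by 1.14 ± 0.10 on the log2 scale (SE; edgeR BH-adjusted p = 6.52e-05). Igf2bp3, a fetal RNA-binding protein that stabilises growth transcripts, was at 32.9, 25.7 and 34.8 CPM in the knockout and at 17.3, 17.5 and 14.5 CPM in the heterozygous libraries, and rose by 0.92 ± 0.14 on the log2 scale (SE; edgeR BH-adjusted p = 0.00229). Igf1r, the receptor of insulin-like growth factors, was at 162 ± 11.3 CPM in the knockout and 263 ± 17.7 CPM in the heterozygous group, and Hoxa9, a homeobox factor, at 44.2 ± 0.274 CPM in the knockout and 67.5 ± 5.19 CPM in the heterozygous group (SD, n = 3 each). They fell by 0.70 ± 0.09 and 0.61 ± 0.09 on the log2 scale (SE; edgeR BH-adjusted p = 0.0006 and 0.00151). The calls for Ccnd2, Igf1r and Hoxa9 held in all 18 alternative analyses and that for Igf2bp3 in 16.

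Igf2bp3 has 1 copy of the let-7 heptamer in its longest annotated 3' UTR, and Ccnd2, Igf1r and Hoxa9 have none in theirs; for Igf1r that UTR is only 197 bases long. Of the 27 target genes with an annotated 3' UTR, 18 hold the heptamer. Hmga2, shown above with 4 copies, was at 99.2, 116 and 111 CPM in the knockout and at 180, 131 and 132 CPM in the heterozygous libraries. The groups did not overlap, and Hmga2 did not pass (log2 fold change -0.44 ± 0.13, SE; edgeR BH-adjusted p = 0.0753). With DESeq2, Hmga2 was called lower (adjusted p = 0.0140). Hmga2 was chosen for this after its values were seen. The let-7 microRNAs themselves were not analysed here.

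Relatives of the 10 genes from the same protein families gave no call. Of 16 relatives tested, 0 were called (3 had an unadjusted p below 0.05 with edgeR, a share close to the 22.0% of all tested genes, and DESeq2 also called 0). Sall1, the SALL factor of nephron progenitors, was at 198 ± 14.8 CPM in the knockout and 232 ± 12.7 CPM in the heterozygous group (SD, n = 3 each; edgeR BH-adjusted p = 0.139), and per length its level was 40.3 TPM in the knockout and 51.8 TPM in the heterozygous group, where Sall4 averaged 0.0254 TPM in the knockout and 0.0038 TPM in the heterozygous group. Yy2, a relative of Zfp42, was at 9.13 ± 0.457 CPM in the knockout and 5.77 ± 2.24 CPM in the heterozygous group (SD, n = 3 each), with no overlap and no call (edgeR BH-adjusted p = 0.154). Ooep, an oocyte protein gene next to Dppa5a and of the same KH family, was at 4.36 ± 0.170 CPM in the knockout and 5.83 ± 0.307 CPM in the heterozygous group, and Csda, a cold shock domain protein as the Lin28 proteins are, at 58.7 ± 0.621 CPM in the knockout and 66.5 ± 4.28 CPM in the heterozygous group (SD, n = 3 each; edgeR BH-adjusted p = 0.212 and 0.235). The groups did not overlap for Sall1, Ooep and Csda either, with the knockout lower. Of 19 measured relatives, 7 had the knockout lower without overlap, against 11.2% of 22771 genes with any count, and 2 had it higher, against 12.8%.

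For Nanog and Lin28b, whose mean reached 1 CPM in a group, the protein-coding genes with the nearest profile over the 6 libraries were found by Euclidean distance of log2(CPM + 1). Nearest to Nanog were Serpina9, Kcnt1 and Try5, at distances of 0.204, 0.263 and 0.272, and nearest to Lin28b were Slc26a9, Zfp663 and Ccdc108, at 0.225, 0.238 and 0.243. At levels this low many genes lie close together.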

How the data were processed

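Cap mesenchyme RNA was extracted with phenol and chloroform, and 50 ng went into ultra low input sequencing (Illumina HiSeq2000), as the labels' protocols state. For each transcript the authors deposited estimated counts, TPM and an effective length, per the file headers. The submitters' processing notes name kallisto and mm10. Its version, the index annotation and strandedness: not given in the sources used here. Of 96626 transcripts, 74519 were paired with genes through GENCODE vM1 and held 92.4% to 92.82% of counts; transcripts outside that annotation are not included in a gene's sum.

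Estimated counts were summed per gene, rounded, and tested with edgeR 4.0.16 (quasi-likelihood, TMM, filterByExpr, R 4.3.3), knockout against heterozygous without covariates, with Benjamini-Hochberg adjustment over 16989 genes at 0.05. CPM uses TMM library sizes. Counting intervals are exact 95% binomial intervals. The fit was tested on simulated counts. Alternatives used DESeq2 1.42.0, limma 3.58.1, other filters and scalings, log2(TPM + 1) and log2(TPM + 0.1), sex or replicate number as a term, and each library left out. Sex was assigned from the summed level of Y-linked genes, with male above 50 CPM. Knockout replicate 2 and heterozygous replicates 1 and 3 were male (168 to 332 CPM). Knockout replicates 1 and 3 and heterozygous replicate 2 were female (7.66 to 9.85 CPM). Sex was thus unevenly spread over the groups. Copies were found with minimap2 (version 2.31-r1302). No 2 libraries agreed within sampling noise (chi-square per degree of freedom at least 13.6).

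The genes and lists were chosen with earlier results of these data known. Named genes are the 10, their neighbours, the 4 smallest p per list, nearest profiles and markers; other names are marked. Older symbols were used where needed to find a listed gene.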

Additional observations from a re-analysis of the deposited data

How the results depend on the processing

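For Pou5f1, Nanog, Dppa2 and Lin28b, 65 of 66 values over the 18 alternatives kept their direction and stayed uncalled; Dppa2 ran from -0.84 without knockout replicate 1 to 1.49 without knockout replicate 3. Other uncalled changes whose sign turned were Gdf3 (0.038 without knockout replicate 2 and 0.14 without heterozygous replicate 1, range with a library left out -0.52 to 0.14), Gsta2 (-0.29 with voom, -0.12 with log2(TPM + 1) with or without its filter, -0.34 with log2(TPM + 0.1), -0.20 with the replicate block, -0.77 to 0.83 with a library left out, lowest without knockout replicate 1), Hace1 (0.0036 with length offsets), Atp9a (-0.042 with library totals, -0.12 to 0.28 with a library left out, lowest without heterozygous replicate 1) and Zfp64 (-0.0025 with library totals).

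Over all genes, 836 higher and 327 lower became 1346 and 586 with DESeq2, 548 higher with log2(TPM + 1), 457 and 761 with its filter on mean TPM, 1883 lower with library totals and 162 lower with sex as a covariate. Leaving out each library gave 526 to 916 higher and 116 to 272 lower. The count of 1 higher network gene became 0 with library totals, voom, length offsets, each analysis of TPM, the replicate block and sex, and 3 with DESeq2, and ranged from 0 to 2 with a library left out. The 2 higher let-7 targets became 1 with log2(TPM + 1) or log2(TPM + 0.1) without a filter; the 2 lower ones became 6 with library totals and 4 with DESeq2. Library totals moved the median of all genes to -0.17 (log2). The cause was not tested.

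Deviations of same-numbered libraries correlated between -0.058 and -0.031. The knockout and heterozygous library of each number differed in assigned sex. These correlations therefore cannot settle whether replicate numbers paired samples. With the replicate block 707 genes were higher and 265 lower. Counts below 3 in a library limit Zfp42, Dppa3, Dppa4, Lin28a and Sall4.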
